A study of Mus musculus with 4 samples.

Results

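The genes described here are the phosphate carriers of the kidney and the PDZ-domain scaffold proteins that hold them at the apical membrane. They were taken by symbol from a list of 10 names: the type II sodium-phosphate cotransporters Slc34a1, Slc34a2 and Slc34a3, the type III cotransporters Slc20a1 and Slc20a2, the exporter Xpr1, and the scaffolds Pdzk1, Slc9a3r1, Slc9a3r2 and Pdzd3. All 10 were found, each with 1 row in every table, among 22662 named genes joined over the 4 libraries, and all 10 passed the filter on low values, which left 13287 genes tested. The libraries were made from poly(A)-selected RNA of whole mouse kidneys at E18.5, on a mixed strain background, in a study of what the loss of Hnf4a does to the developing kidney; Hnf4a is a nuclear receptor made in proximal tubule cells. The 2 control libraries carried 1 conditional and 1 wild-type allele of Hnf4a (Hnf4a c/+) and the 2 mutant libraries carried 2 conditional alleles (Hnf4a c/c). Both groups also carried Six2GFPcre, a Cre transgene of nephron progenitors that deletes the conditional allele in them and in the epithelium they form, so the control kidneys are heterozygous there rather than intact. Stroma, vessels and collecting duct lie outside that lineage and were part of every sample. The labels do not say whether a library came from 1 embryo or from several. Y-linked Ddx3y was found in replicate 1 and Xist in replicate 2 of either group, so the 2 libraries of a group came from different embryos. The p-values reflect only how far these libraries spread, which includes any difference by sex.

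Most filtered phosphate is recovered in the proximal tubule. Type II cotransporters in the brush border, chiefly NaPi-IIa (encoded by Slc34a1) and NaPi-IIc (Slc34a3), carry phosphate into the cell together with sodium, type III cotransporters (PiT-1 and PiT-2) serve phosphate uptake in most cells, and Xpr1 lets phosphate out. NHERF-family scaffolds bind the C-terminal tail of NaPi-IIa through PDZ domains, and NHERF1 (Slc9a3r1) links it, through ezrin, to the actin core of the microvillus. Parathyroid hormone and FGF23 lower uptake by removing the cotransporter from the membrane.

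Values are FPKM, fragments per kilobase of transcript and scaled to the mapped fragments of the library, so that levels of genes can be set side by side. In the control libraries Pdzk1 stood highest (131 ± 7.58 FPKM, mean ± SD, n = 2 libraries per group here and below), followed by Slc34a1 (106 ± 17.8), Slc9a3r1 (81.1 ± 3.21), Slc9a3r2 (77.8 ± 0.623), Slc20a2 (31.5 ± 0.101), Slc20a1 (21.3 ± 0.201), Xpr1 (16.4 ± 1.65), Pdzd3 (13.7 ± 0.0263), Slc34a3 (2.67 ± 0.766) and Slc34a2 (2.09 ± 1.05). The libraries of neighbouring genes in this order did not overlap, except for Slc34a3 and Slc34a2. Between Slc9a3r1 and Slc9a3r2 the gap was small, with 78.9 FPKM for Slc9a3r1 in control replicate 2 and 78.2 FPKM for Slc9a3r2 in control replicate 1. In the mutant libraries Slc9a3r2 stood highest, and Pdzk1, Slc9a3r1 and Slc34a1 followed it in that order, with no overlap between the libraries of neighbours. Slc20a2, Slc20a1, Xpr1 and Pdzd3 kept their places, and Slc34a2 stood above Slc34a3.

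None of the 10 genes passed an adjusted p under 0.05 with limma on log2(FPKM + 1), where 0.158% of all tested genes did (0.113% lower and 0.0452% higher). At an unadjusted p under 0.05, 5 of the 10 were lower and 0 higher in the mutant libraries, against 4.57% and 2.67% of all tested genes. Mutant and control libraries did not overlap in 8 of the 10, with 7 lower and 1 higher, whereas 17.1% of all tested genes were lower and 22.7% higher without overlap. Without control replicate 1 or without control replicate 2, 0 of all tested genes passed with limma (at an unadjusted p under 0.05, 721 were lower and 293 higher without replicate 1, and 1103 and 1192 without replicate 2). Leaving out 1 library also leaves the groups unbalanced for the Y-linked and Xist transcripts, which were split by replicate number. The median log2 change of the 10 was -0.43, beside 0.02 over all tested genes. With 2 libraries against 2, an exact two-sided permutation test of a single value cannot go below 0.333. In whole kidneys, fewer cells of a type and less RNA per cell cannot be told apart.

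**Figure D1:**
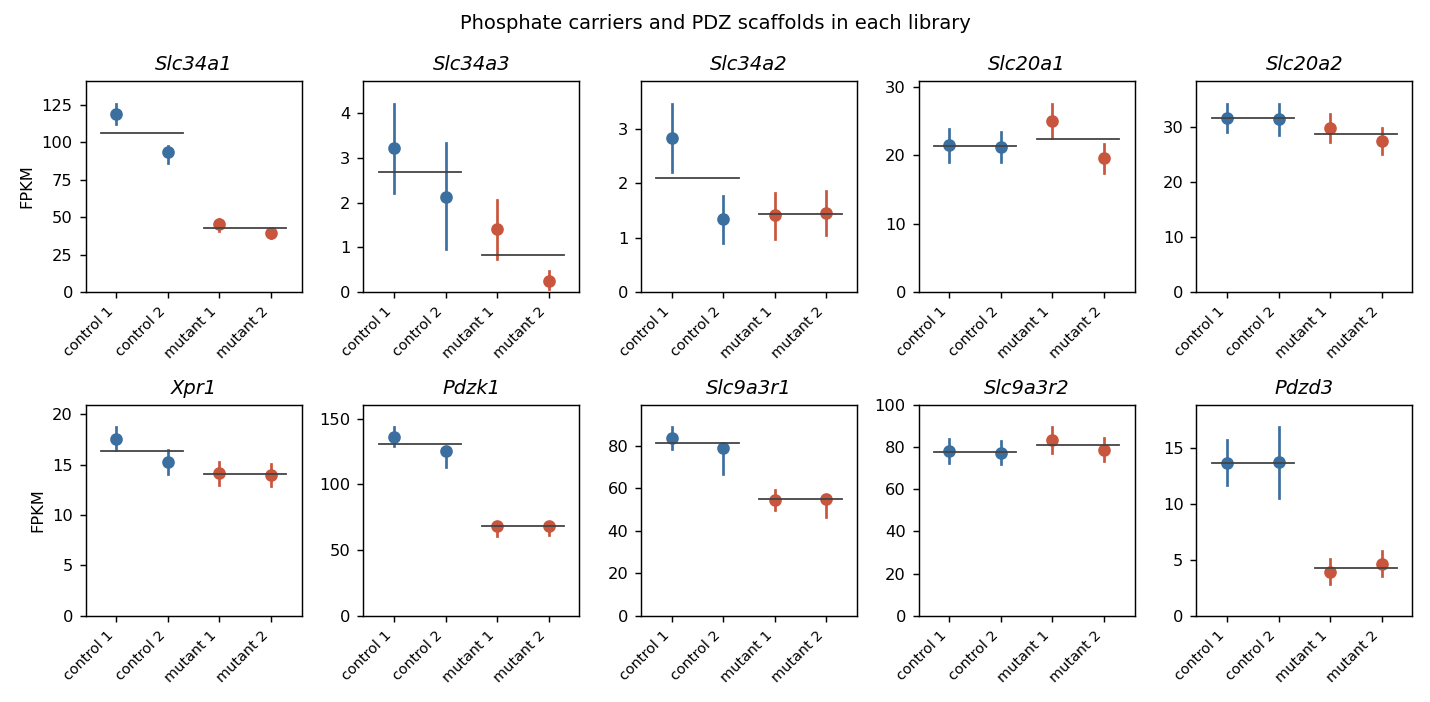
FPKM of each gene in the 2 control (blue) and 2 mutant (red) libraries. Points are library values, vertical bars the intervals deposited by the authors for each library, and horizontal lines the group means. Each vertical bar belongs to a single library and does not measure the spread between libraries. Slc34a1, Pdzk1, Slc9a3r1 and Pdzd3 lie lower in both mutant libraries, with bars that do not meet those of the controls, and Slc20a1 and Slc9a3r2 lie at about the same height in both groups.

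Slc34a1, the main brush border phosphate carrier, lies at mm9 chromosome 13, 55501009 to 55516056. Control replicates 1 and 2 had 119 and 93.8 FPKM, and mutant replicates 1 and 2 had 45.3 and 39.7 FPKM. Both mutant libraries were thus well below both control libraries, and the gap between the groups was larger than the gap between the controls. The mutant mean was 39.9% of the control mean, with a log2 change of -1.30 (SE 0.15) and an adjusted p of 0.098. Of all tested genes, 0.918% had a change as low or lower. The authors' deposited intervals of each mutant library lay below those of each control library in all 4 pairs. These intervals are given for each library on its own and do not measure the spread between libraries.

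The locus of Slc34a1 kept the same ends in all 4 tables. An unnamed locus had been assembled inside it in the control libraries, at 8.73 FPKM in replicate 1 (55504498 to 55511610) and 7.36 FPKM in replicate 2 (55504671 to 55510414), and none overlapped it in the mutant tables. Its part in the Slc34a1 values was not tested. Pfn3, on the opposite strand in GENCODE M21, overlapped the end of the gene by 8 bases and was listed at 0 in every library.

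The other type II carriers were scarce. Slc34a3, which encodes NaPi-IIc (mm9 chromosome 2, 25084417 to 25089754), had 3.22 and 2.13 FPKM in control and 1.40 and 0.255 FPKM in mutant kidneys. The groups did not overlap, but the mutant libraries differed more from each other than the nearest control and mutant did. The log2 change of -1.07 (SE 0.38, adjusted p = 0.67) shrank to -0.60 without mutant replicate 2. At these levels the +1 in the logarithm understates the change. Slc34a2, which encodes NaPi-IIb, the carrier of lung and gut (mm9 chromosome 5, 53440592 to 53462902), had 2.84 and 1.35 FPKM in control and 1.41 and 1.45 FPKM in mutant kidneys. Control replicate 1 stood apart and the other 3 libraries were close together, so that the log2 change of -0.30 (SE 0.29, adjusted p = 0.79) became 0.05 without that library.

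The type III carriers differed little. Slc20a1, which encodes PiT-1 (mm9 chromosome 2, ending at 129037348), had 21.5 and 21.2 FPKM in control and 25.0 and 19.6 FPKM in mutant kidneys. The mutant libraries lay on either side of the controls. The log2 change was 0.05 (SE 0.14), with a 95% interval of ± 0.38 and an adjusted p of 0.92, and was -0.11 without mutant replicate 1. The assembled start of this locus took 3 different positions in the 4 tables. Slc20a2, which encodes PiT-2 (mm9 chromosome 8, 23587172 to 23680088), had 31.6 and 31.4 FPKM in control and 29.7 and 27.4 FPKM in mutant libraries. Both mutant values were lower, by a log2 change of -0.14 (SE 0.08, 95% interval ± 0.23, adjusted p = 0.76). Its locus shares 180 bases with Smim19 on the opposite strand, with means of 21.7 ± 0.743 (control) and 21.1 ± 3.79 FPKM (mutant).

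Xpr1, the phosphate exporter (mm9 chromosome 1, 157122787 to 157264574), had 17.6 and 15.2 FPKM in control and 14.1 and 14.0 FPKM in mutant libraries. The mutant values were the lower ones, but the nearest control and mutant libraries were closer than the controls were to each other. The log2 change was -0.21 (SE 0.12, adjusted p = 0.76) and was -0.11 without control replicate 1.

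The make-up of the cotransporter transcripts differed between the groups. The 5 sodium-phosphate cotransporters summed to 178 and 149.8 FPKM in the control and to 103 and 88.4 FPKM in the mutant libraries. Slc34a1 made up 66.8% and 62.6% of this sum in the control libraries and 44.0% and 44.9% in the mutant libraries. Without Slc34a1 the sums were 59.1 and 56.1 FPKM against 57.6 and 48.8 FPKM, which overlap. Slc20a2 made up 17.7% and 21.0% in control and 28.9% and 31.0% in mutant libraries, although its own level was not higher. The ratio of Slc34a1 to Slc20a2 was 3.38 ± 0.555 in control and 1.48 ± 0.0557 in mutant libraries.

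**Figure D2:**
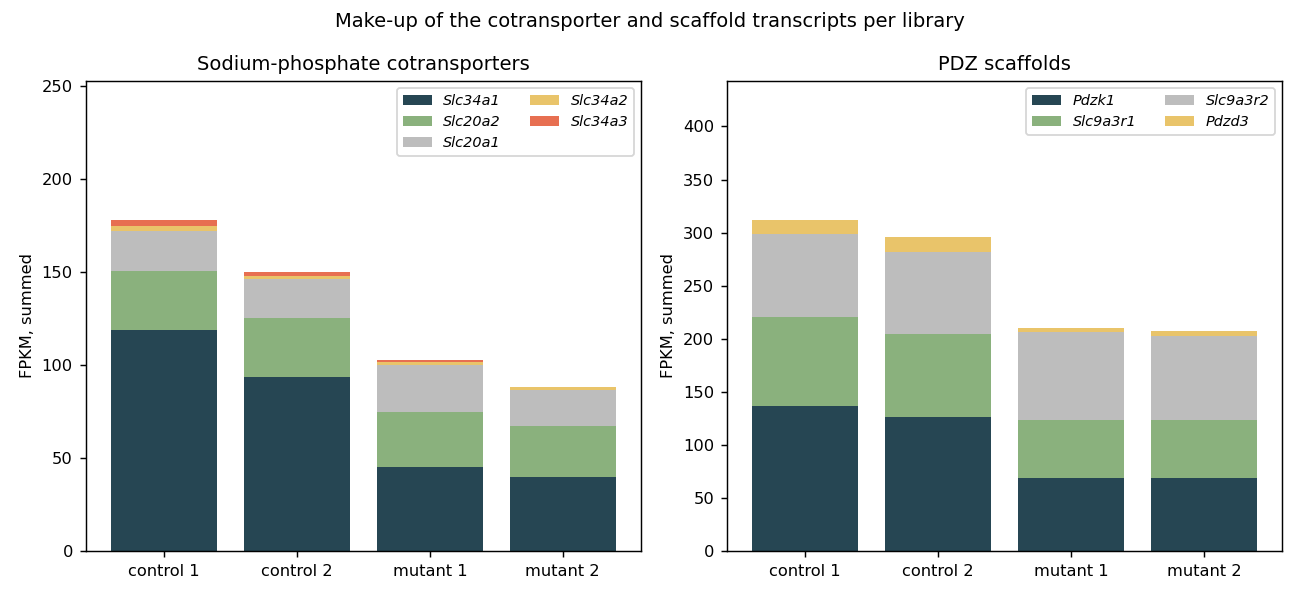
Stacked FPKM of the 5 sodium-phosphate cotransporters (left) and the 4 PDZ scaffolds (right) in each library, 1 bar per library. Slc34a1 makes up 66.8% and 62.6% of the cotransporter sum in the control bars and 44.0% and 44.9% in the mutant bars, and Pdzk1 makes up 43.8% and 42.6% of the scaffold sum in the control bars and 32.6% and 33.1% in the mutant bars.

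Among the scaffolds, Pdzk1, a protein built of PDZ domains that gathers apical carriers, had the smallest p of the 10 genes. It lies at mm9 chromosome 3, 96633988 to 96675045 in the table of control replicate 1. The controls had 136.6 and 126 FPKM and the mutants 68.6 and 68.4 FPKM. The mutant libraries were almost equal and far below the controls. The mutant mean was 52.2% of the control mean, with a log2 change of -0.93 (SE 0.07) and an adjusted p of 0.057. The adjusted p was 0.042 with a robust variance model and 0.050, just under the threshold, with genes under 5 FPKM left out. It was 0.078 with no filter but a value above 0, 0.128 without a variance trend and 0.169 with the replicate number as a block. A gene named 4930442L01Rik on the opposite strand shares 2006 bases with the Pdzk1 locus and was listed at 0 in every library. The assembled end of Pdzk1 took 3 positions in the 4 tables.

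Slc9a3r1 encodes NHERF1, the ezrin-binding scaffold whose loss is known to cause phosphate wasting. It lies at mm9 chromosome 11, 115024655 to 115042492. The controls had 83.4 and 78.9 FPKM and the mutants 54.4 and 55.0 FPKM. The mutant libraries agreed closely and lay below both controls. The mutant mean was 67.4% of the control mean (log2 change -0.56, SE 0.07, adjusted p = 0.13).

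Pdzd3, the smallest scaffold transcript pool of the 4, encodes NHERF4 and lies at mm9 chromosome 9, 44055395 to 44059547 in 3 of the tables. Its values were 13.6 and 13.7 FPKM in control against 3.93 and 4.65 FPKM in mutant kidneys. The mutant mean was 31.4% of the control mean, and the log2 change of -1.47 (SE 0.14, adjusted p = 0.085) was the lowest among the 10 genes on log2(FPKM + 1), with Slc34a3 lower with a pseudocount of 0.1 (-1.90 against -1.65) and without mutant replicate 1 (-1.53 against -1.38). Of all tested genes, 0.587% had a change as low or lower.

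Slc9a3r2, which encodes NHERF2, the nearest relative of NHERF1 (mm9 chromosome 17, 24776227 to 24787250 in 3 of the tables), had 78.2 and 77.3 FPKM in control and 83.4 and 78.8 FPKM in mutant kidneys. Both mutant values were the higher ones, by a log2 change of 0.06 (SE 0.07, 95% interval ± 0.19, adjusted p = 0.82), which is less than the distance between the mutant libraries. Summed over the 4 scaffolds, the control libraries had 312 and 296 FPKM and the mutant libraries 210.4 and 207 FPKM. The share of Slc9a3r2 in this sum was 25.1% and 26.1% in control and 39.7% and 38.1% in mutant libraries, and the share of Slc9a3r1 was 26.7% and 26.7% in control and 25.9% and 26.6% in mutant libraries. The ratio of Slc9a3r1 to Slc9a3r2 was 1.07 and 1.02 in control and 0.652 and 0.697 in mutant libraries. For Pdzk1 over Slc9a3r2 it was 1.75 and 1.63 against 0.822 and 0.868.

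Slc34a1 stood lower against each of its main scaffolds as well. The ratio of Slc34a1 to Pdzk1 was 0.871 and 0.745 in control and 0.660 and 0.580 in mutant libraries, and that of Slc34a1 to Slc9a3r1 was 1.43 and 1.19 against 0.832 and 0.722. Neither ratio overlapped between the groups, though the drop in Slc34a1 over Pdzk1 from the nearest control to the nearest mutant library was smaller than the distance between the controls.

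**Figure D3:**
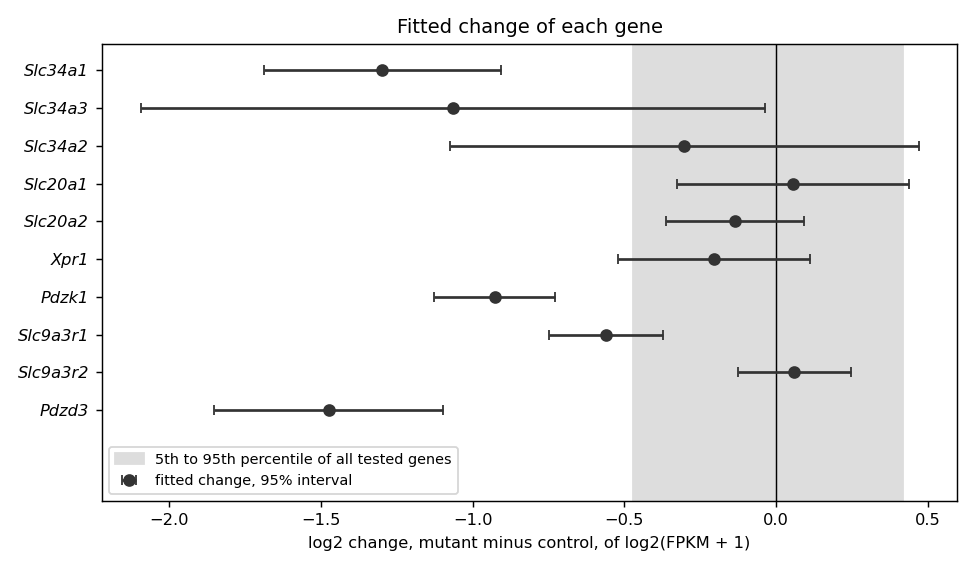
Fitted log2 change (mutant minus control, on log2(FPKM + 1)) of each gene with its 95% interval from limma. The grey band spans the 5th to the 95th percentile of all tested genes, from -0.47 to 0.42. Slc34a1, Slc34a3, Pdzk1, Slc9a3r1 and Pdzd3 lie left of the band, and the other 5 genes lie inside it.

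The sequences before the start sites are shown for the 4 genes with the smallest p, whose levels were lower in both mutant libraries, and for Slc9a3r2 as the scaffold that was not lower. They are the 250 bases before the annotated RefSeq start (build GRCm38.p6, not the mm9 of the expression tables; the more upstream start where RefSeq has 2), 5′ to 3′ on the strand of the gene. Capitals mark CAAAG, the core of sites bound by HNF4 proteins, and GTTAAT, a part of sites bound by HNF1 proteins, on either strand; the Pdzk1 and Slc9a3r1 sequences printed hold neither. The inner RefSeq window of Pdzk1, not printed, holds CAAAG on the other strand at 62 and 6 bases before its start.
Slc34a1 (chr13:55399398-55399647, plus strand): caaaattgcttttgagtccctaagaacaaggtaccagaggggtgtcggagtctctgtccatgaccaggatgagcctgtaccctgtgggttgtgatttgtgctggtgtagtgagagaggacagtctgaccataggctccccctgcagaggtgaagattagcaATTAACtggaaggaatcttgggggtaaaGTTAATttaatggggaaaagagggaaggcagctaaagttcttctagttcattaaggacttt
Pdzk1 (chr3:96829815-96830064, plus strand): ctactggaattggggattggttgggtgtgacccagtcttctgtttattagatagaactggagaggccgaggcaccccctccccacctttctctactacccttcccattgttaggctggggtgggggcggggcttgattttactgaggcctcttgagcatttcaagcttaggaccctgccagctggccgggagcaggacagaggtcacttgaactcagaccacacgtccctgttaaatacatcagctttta
Slc9a3r1 (chr11:115163091-115163340, plus strand): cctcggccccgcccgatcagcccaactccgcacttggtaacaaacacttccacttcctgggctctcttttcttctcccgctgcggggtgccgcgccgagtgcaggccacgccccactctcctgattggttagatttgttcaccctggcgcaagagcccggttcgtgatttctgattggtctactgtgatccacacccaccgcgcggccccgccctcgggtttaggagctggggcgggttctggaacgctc
Pdzd3 (chr9:44251465-44251714, minus strand): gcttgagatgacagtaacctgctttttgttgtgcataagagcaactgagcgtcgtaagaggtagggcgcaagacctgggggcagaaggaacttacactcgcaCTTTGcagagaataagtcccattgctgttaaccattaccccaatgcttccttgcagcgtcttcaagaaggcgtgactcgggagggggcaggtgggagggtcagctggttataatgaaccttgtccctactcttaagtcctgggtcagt
Slc9a3r2 (chr17:24650306-24650555, minus strand): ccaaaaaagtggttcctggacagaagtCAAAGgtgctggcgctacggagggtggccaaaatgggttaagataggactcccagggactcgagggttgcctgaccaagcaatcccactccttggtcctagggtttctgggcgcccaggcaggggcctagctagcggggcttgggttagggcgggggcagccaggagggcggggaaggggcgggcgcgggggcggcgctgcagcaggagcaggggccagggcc

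RefSeq windows were matched by symbol for 9 of the 10 genes, 12 windows in all. The fuller HNF4-type sequences CAAAGTNCA and CAAAGGTCA, searched on both strands, were in 0 of the 12 windows, against 1.19% and 0.426% of all 32851 windows of the same length. The short CAAAG, which is part of both, was in 6 of the 12 and in 48.6% of all windows, and it was as much a feature of Slc9a3r2, where it lay 223 bases before the start, as of Pdzd3, where it lay 148 bases before it on the other strand. GTTAAT was in the Slc34a1 window at 89 bases (other strand) and 61 bases before the start and in none of the other windows; 6.43% of all windows held at least 1 and 0.441% held 2 or more. GGTTCA, a part of vitamin D receptor sites, was in 2 of the 12 windows (Pdzd3 and the inner window of Slc9a3r2) and in 8.85% of all windows. A match describes letters only, and these windows leave out any site farther away.

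Partners of the scaffold at the apical membrane differed in direction. Of 13 listed partners 11 were tested, and 0 passed over all genes with limma (5 lower and 0 higher at an unadjusted p under 0.05). Without overlap, 6 were lower and 2 higher, and the median log2 change was -0.28. For the lists here and below, 4.57% of all tested genes were lower and 2.67% higher at an unadjusted p under 0.05. Without overlap these shares were 17.1% and 22.7%. Slc17a3 and Slc17a1, organic anion carriers of the family once described as phosphate transporters, were at 9.21 and 6.72 against 1.86 and 3.36 FPKM and at 21.4 and 17.7 against 6.19 and 10.2 FPKM. Slc22a12, the urate exchanger URAT1, was at 36.4 and 29.2 against 17.1 and 13.7 FPKM (log2 change -1.04, SE 0.17, adjusted p = 0.20). Slc9a3, the sodium-proton exchanger NHE3 after which the NHERF scaffolds are named, was at 8.09 and 7.84 against 8.38 and 15.3 FPKM, so that its higher mutant mean rests on mutant replicate 2. Ezrin (Ezr), the link from NHERF1 to actin, was at 108 and 110.4 against 92.8 and 91.3 FPKM, and Pdzk1ip1, a small membrane protein that binds Pdzk1, was at 146 and 149.7 against 121.8 and 121.5 FPKM; both were named after their values were seen.

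Of 14 other PDZ proteins of polarised epithelium, 0 passed (1 lower and 0 higher at an unadjusted p under 0.05), and the median was -0.05. Without overlap, 2 were lower and 1 higher, which is not above the shares of all tested genes (17.1% and 22.7%). Ush1c, the harmonin scaffold of the microvillus tip, was at 29.7 and 31.5 against 18.6 and 19.8 FPKM (log2 change -0.65, SE 0.09, adjusted p = 0.15). The polarity protein Pard6b was at 38.6 and 37.7 against 35.7 and 37.4 FPKM, and Mpdz, a tight junction scaffold, at 18.6 and 19.3 against 20.2 and 21.3 FPKM.

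Genes of the hormonal control of phosphate had smaller log2 changes than Slc34a1, with the exception of Cyp27b1. Of 18 listed, 16 were tested, 0 passed (2 lower and 0 higher at an unadjusted p under 0.05), 5 were lower and 0 higher without overlap, and the median was -0.08. Pth1r, the receptor of parathyroid hormone, was at 104 and 99.9 against 85.2 and 85.0 FPKM (log2 change -0.26, SE 0.07, adjusted p = 0.46). Kl, the Klotho co-receptor of FGF23, was at 34.9 and 19.8 against 18.6 and 19.5 FPKM, so that control replicate 1 stood apart from the other 3 libraries. Fgfr3, an FGF receptor, was at 20.1 and 16.8 against 14.0 and 14.1 FPKM. Cyp27b1, which makes active vitamin D, was at 17.3 and 2.89 against 1.78 and 1.06 FPKM. The size of its log2 change of -1.82 (SE 0.78, adjusted p = 0.75) rests in large part on control replicate 1. Control replicate 2 also lay above both mutant libraries.

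None of the 6 tested genes of inositol pyrophosphate and SPX-domain phosphate sensing, the system that acts on Xpr1, was without overlap or had an unadjusted p under 0.05, and their median was -0.05. The kinases Ip6k2 and Ip6k1 were at 64.7 and 61.0 against 79.6 and 56.6 FPKM and at 83.8 and 43.8 against 45.3 and 62.1 FPKM. Of 5 genes of pyrophosphate and phosphatases 3 were tested and 0 passed, with 1 lower at an unadjusted p under 0.05. Alpl, the tissue-nonspecific alkaline phosphatase, was at 36.9 and 20.5 against 9.47 and 7.40 FPKM (log2 change -1.60, SE 0.31, adjusted p = 0.28), and Ank, a carrier involved in pyrophosphate export, was at 10.3 and 11.7 against 9.61 and 9.66 FPKM.

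**Figure D4:**
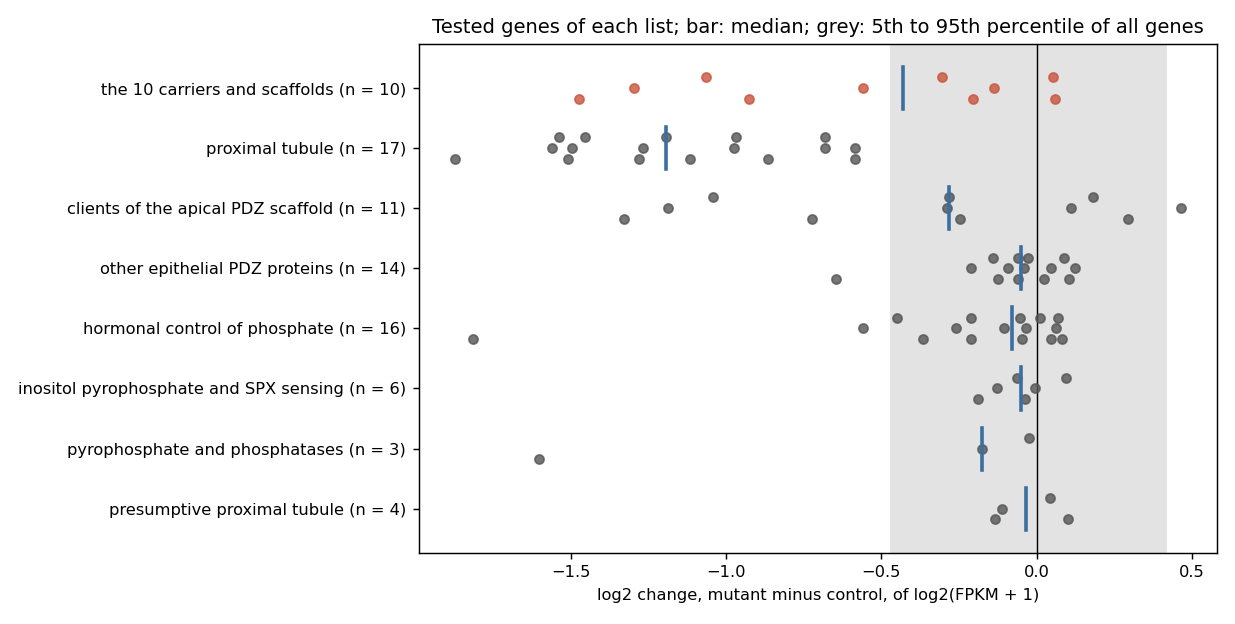
Log2 change (mutant minus control, on log2(FPKM + 1)) of every tested gene of each list; dots are genes, blue bars medians, and the grey band the 5th to the 95th percentile of all tested genes. The 17 proximal tubule markers have a median of -1.19, the 10 carriers and scaffolds one of -0.43 and the other epithelial PDZ proteins one of -0.05. The lists were chosen with earlier results of these data known.

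Markers of the proximal tubule, the cells that hold NaPi-IIa, were lower in the mutant libraries, as were Slc34a1, Pdzk1, Slc9a3r1 and Pdzd3, whereas Slc20a1 and Slc9a3r2 had log2 changes of 0.05 and 0.06. All 17 markers were lower without overlap, with log2 changes from -1.87 to -0.59 and a median of -1.19. Their summed levels were 775 and 675 FPKM in control and 349 and 371 FPKM in mutant kidneys. The list was chosen with earlier results of these data known, so this count is not independent of them. Vil1, the microvillar protein villin, passed over all genes (26.9 and 25.9 against 6.93 and 6.05 FPKM, adjusted p = 0.036). The part of such cells or their RNA in the values of the carriers and scaffolds was not tested. The presumptive proximal tubule genes had 2 of 4 members lower without overlap and a median of -0.03, with Cdh6, a cadherin of the early tubule, at 37.9 and 39.8 against 35.9 and 35.7 FPKM.

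Set against marker genes of the same library, the carriers and scaffolds differed among themselves. The ratio of Slc34a1 to Lrp2, the endocytic receptor megalin, was 2.45 and 2.09 in control and 3.10 and 2.33 in mutant libraries, which overlap. The ratio of Pdzk1 to Lrp2 was 2.82 and 2.80 against 4.69 and 4.03, and that of Slc9a3r1 to Lrp2 was 1.72 and 1.75 against 3.72 and 3.23, both higher in the mutant libraries. The ratio of Pdzd3 to Lrp2 was 0.282 and 0.305 against 0.269 and 0.274, slightly lower. Over Vil1, the ratios were higher in the mutant libraries for Slc34a1 (4.02 ± 0.562 against 6.54 ± 0.0210), Pdzk1 (4.97 ± 0.148 against 10.6 ± 1.0), Slc9a3r1 (3.07 ± 0.0353 against 8.47 ± 0.875) and Pdzd3 (0.518 ± 0.0155 against 0.668 ± 0.142). Over Cubn, the megalin partner cubilin, Slc34a1 was at 7.15 ± 2.28 against 9.30 ± 0.0227 and Pdzk1 at 8.75 ± 1.86 against 15.1 ± 1.41. Each marker gene was lower in the mutant libraries, and a ratio describes unequal differences only.

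**Figure D5:**
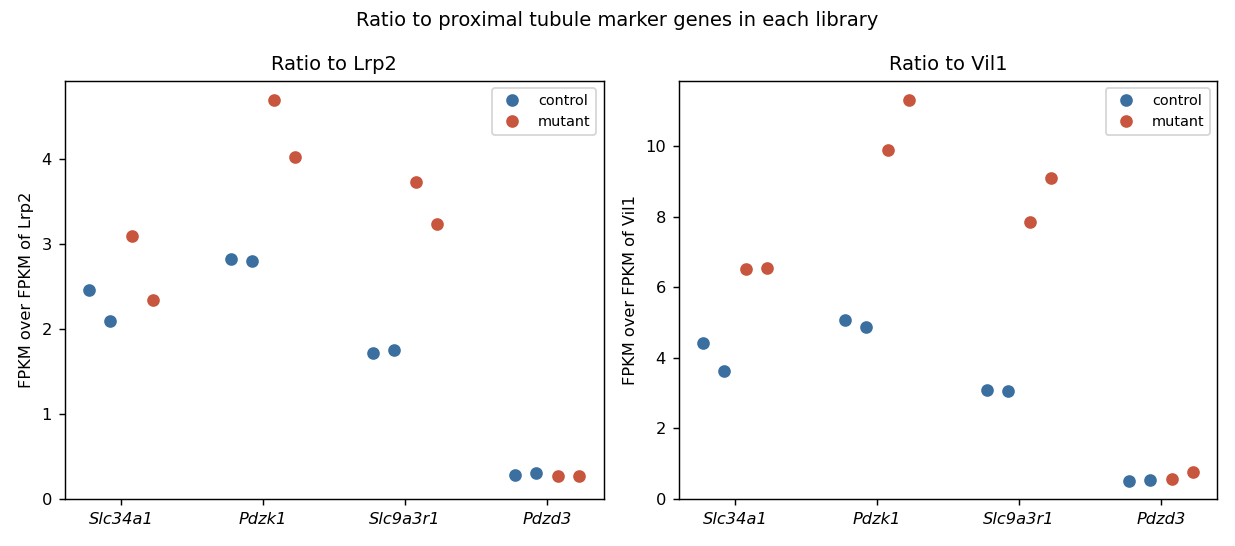
Ratio of the FPKM of Slc34a1, Pdzk1, Slc9a3r1 and Pdzd3 to that of Lrp2 (left) and Vil1 (right) in each control (blue) and mutant (red) library. The ratios of Pdzk1 and Slc9a3r1 are higher in both mutant libraries on both sides, whereas the ratio of Slc34a1 to Lrp2 overlaps between the groups.

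The genes with the most similar profile were found by the Euclidean distance between log2(FPKM + 1) values centred on each gene's mean over the 4 libraries, which is a description of these libraries. Nearest to Slc34a1 was Slc22a2, an organic cation carrier (distance 0.154, at 25.4 and 17.4 against 9.17 and 7.86 FPKM). Next came the transglutaminase Tgm1 (0.174), the D-amino acid oxidase Dao (0.183), Serpina10 (0.184) and 6330549D23Rik (0.187). 6330549D23Rik was close to the filter of 1 FPKM, at 1.47 and 1.07 FPKM in control libraries, and was listed at 0 in both mutant libraries. Nearest to Pdzk1 were Cldn2, the claudin of leaky tubule junctions (0.0559; 58.7 and 51.4 against 28.2 and 28.8 FPKM), the glycerol phosphate dehydrogenase Gpd1 (0.0659), Slc44a4 (0.0725), the peroxisomal enzyme Ehhadh (0.0919) and Tmem82 (0.0998). The adjusted p of these 10 genes was between 0.061 and 0.23.

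As facts of the whole series, the tables held between 13552 and 13646 named genes at 1 FPKM or more and no read totals. Hnf4a itself was at 89.3 and 84.6 against 87.1 and 78.5 FPKM (log2 change -0.07, SE 0.08, adjusted p = 0.83), a value over the whole gene that does not check the deletion. Kidney markers were present: the podocyte, loop and distal tubule, collecting duct and nephron progenitor lists had medians from -0.13 to 0.11, with 0 of 15 genes past the threshold. Lists for urothelium (median 0.32, 4 genes), macrophages (0.07, 3 genes) and erythroid cells (0.39, 3 genes) also had 0 genes past it. The erythroid list held 1 gene lower and 1 higher without overlap, each at an unadjusted p under 0.05 with limma, so its median describes no common direction. Adrenal, gut and lung markers summed to at most 1.23, 0.433 and 0.289 FPKM in any library. The source of the Slc34a2 RNA was not tested. Y-linked Ddx3y was present in replicate 1 of either group (27.7 and 26.4 FPKM) and Xist in replicate 2 (81.0 and 74.0 FPKM), so that the pattern was balanced between the groups.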

How the data were processed

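RNA was taken from whole kidneys of mouse embryos, selected for poly(A) and sequenced, per the labels' protocols. The authors computed the FPKM values and their intervals and deposited 1 table per library, per the file headers. Cufflinks 2.1.1, TopHat2 2.0.11 and Bowtie 1.0.0 and SAMtools 0.1.19 are the tools, and mm9 the build, per the submitters' processing notes; which annotation was used is not stated there. Strand use is not stated, so where genes on opposite strands overlap, their reads cannot be separated. Loci were assembled per library, and a gene's ends can move between tables. Starts in the tables count from 0 (the end minus the start equals the hairpin length in 738 of 753 microRNA loci) and are given here plus 1.

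Tables were joined by symbol (22761 names in all 4; 99 genes with a row not marked OK left out), and FPKM was summed over rows of a symbol. A gene entered the test with 1 FPKM or more in 2 or more libraries. Log2(FPKM + 1) was fitted by group with limma 3.58.1 in R 4.3.3, with moderated variances and an intensity trend. P-values were adjusted by Benjamini-Hochberg over all 13287 genes, with a threshold of 0.05. The fit was also run on simulated data with known changes, and the share of them recovered is not given here. Log2 changes are on that scale, which understates changes at low levels, whereas a mutant mean given as a percentage compares the untransformed means. Absolute depth is unknown: among named genes under 0.1 FPKM the commonest log2 ratio was 0.20 for each other library over mutant replicate 2 and between -0.05 and 0.00 for the other pairs.

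The members and lists were chosen with earlier results of these data known. Named genes are all members, Hnf4a, up to 4 listed genes per pathway list without overlap by size of change (or else the 2 highest by level), the 5 nearest profiles of Slc34a1 and of Pdzk1, and overlapping loci; of cell type lists other than the proximal ones mainly counts are given. A few listed genes were not analysed here. A listed gene covered by the rule is counted but not reported here. The 15 alternatives changed the pseudocount, filter, scaling, variance model, rows per symbol, threshold, replicate block and each library left out. A lone library was assumed to vary like the other group. With 1 library left out, the groups are not balanced for the Y-linked and Xist transcripts, and the part of this in the changes was not tested.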

Additional observations from a re-analysis of the deposited data

How the results depend on the processing

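The number of genes past the threshold, 21 with the settings above, was 10 with no filter but a value above 0, 33 with a filter of 5 FPKM, 11 without a variance trend, 37 with robust variance and 79 at a threshold of 0.10. It ranged from 0 to 21 when 1 library was left out, with 0 without control replicate 1 and 0 without control replicate 2. With the replicate number as a block it was 6, with 0 of the 10 genes described here past it; same-numbered libraries share only a number in the labels (correlation of deviations from the group means 0.146 over genes, with Y-linked and Xist transcripts split by number). Of the 10 genes, 0 passed with the settings above, 1 (Pdzk1) with a filter of 5 FPKM, 1 (Pdzk1) with robust variance, and 3 (Slc34a1, Pdzk1 and Pdzd3) at 0.10, and 0 to 0 when 1 library was left out. The change of Slc34a2 turned to 0.051 without control replicate 1 and lay between -0.66 and 0.051 with 1 library left out, and that of Slc20a1 turned to -0.11 without mutant replicate 1 and lay between -0.11 and 0.22; the other 8 genes kept their direction under every alternative in which they were tested. Over the alternatives the change ran from -1.47 to -1.13 for Slc34a1, from -0.99 to -0.87 for Pdzk1, from -0.60 to -0.52 for Slc9a3r1, from -1.65 to -1.38 for Pdzd3 and from -1.90 to -0.60 for Slc34a3. Slc34a2 and Slc34a3 were not tested with the filter of 5 FPKM. Where counts changed, the cause was not tested.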

Other observations

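Gpr89, whose assembled locus meets the end of the Pdzk1 locus by 57 bases in control replicate 1 and by 44 in mutant replicate 2, was listed at 0 in control replicate 1 and at 23.2 FPKM in control replicate 2, 26.4 in mutant replicate 1 and 24.7 in mutant replicate 2. Unnamed loci were assembled inside Slc20a1 in the mutant tables, at 10.4 FPKM in replicate 1 and 5.62 FPKM in replicate 2, and none overlapped it in the control tables. These genes were named after their values were seen, and the part of these loci in the values of Pdzk1 and Slc20a1 was not tested.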
